A study of Rattus norvegicus with 10 samples.

Results

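The nuclear genes for the subunits of oxidative phosphorylation were examined in rat white adipose tissue, and the 45 genes were listed by complex: 16 of complex I, 4 of complex II, 7 of complex III counted together with cytochrome c, 10 of complex IV and 8 of complex V. Members were taken as every probe set to which the platform annotation gives 1 gene symbol from that list, which found 44 probe sets for 40 genes, among 31042 probe sets tested and 14217 genes with such a probe set. Ndufa10, Uqcrb, Cycs, Cox7a2 and Atp5mc1 have only probe sets that the annotation assigns to several genes, so no value is given for them, and cytochrome c itself is not measured. Gene names and identifiers of all 44 probe sets matched the current rat gene table.

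Oxidative phosphorylation makes most of the ATP of a resting cell. Complexes I and II pass electrons from NADH and succinate to ubiquinone, complex III passes them on to cytochrome c, and complex IV hands them to oxygen, while complexes I, III and IV pump protons out of the matrix and complex V, the ATP synthase, lets them back in and makes ATP. In white adipocytes this machinery is needed for fatty acid synthesis and re-esterification as well as for ATP, and in brown and beige adipocytes it drives heat production. Nearly all subunits are nuclear genes whose products are imported, and a small core of subunits is encoded by mitochondrial DNA.

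Expression was measured on 1 array per animal in white adipose tissue of 10 male rats, aged 13 weeks. The noodle group of 5 rats ate for 30 days a diet of which instant noodle made up 30% by weight and fat gave 26% of the energy, and the control group of 5 rats is labelled as given that diet with the seasonings left out. Feeding was paired between the diets, at a daily amount of about 60 g per kg body weight, and another label gives its length as 4 weeks. The labels name no strain or fat depot, and the numbers in the sample titles are taken as separate animals.

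The deposited values are log2 levels with array medians between 6.17 and 6.18, and most of them hardly move between animals. Probe sets with an SD over the 10 arrays of 0.01 or less are called flat and the others variable, and 91.6% of all 31042 probe sets are flat. The labels do not say what made them flat, and every level, difference and fold is on the scale of the deposited values. Control animal 14 stood apart, with the highest of the 10 values in 31.2% of all 2607 variable probe sets. Differences of the members lowest in it, and the median correlation over all member pairs, are therefore also given without it. Adipocyte markers stood at a median of 12.2 over 9 measured genes, while 9 brain markers, examined because the extraction text names a brain sample, had a median of 5.74, with the myelin gene Mbp at 8.76. RNA quality, read from how far 3-prime probe sets of Actb and Gapdh exceeded the 5-prime ones, differed between the diets: this 3-prime to 5-prime difference averaged 0.84 ± 0.07 with noodle and 0.95 ± 0.08 with control (SD, n = 5 each; exact two-sided permutation test, p = 0.0476). For the array medians the exact two-sided permutation test (n = 5 each) gave p = 0.302. For the hybridization mean, used later as a covariate, the exact two-sided permutation test (n = 5 each) gave p = 0.111. These p-values were not adjusted for the number of measures tested. In bulk tissue, fewer cells of a type and less RNA per cell cannot be told apart.

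Promoter sequences are shown for 5 members whose values carry the results that follow. Each line gives the 120 bases before the RefSeq start of the gene in build GRCr8, 5′ to 3′ on the strand of the gene. Atp5po, Uqcrfs1 and Sdhd are subunits that stood lowest in control animal 14, Uqcrc2 stood high in that animal, and Sdha has the most matches to the first motif. Capitals mark matches to any of 3 motifs, searched on both strands: GCGCANGCG, of the type bound by NRF-1; CCGGAAG, of the ETS type bound by GABP; and AAGATGG, of the type bound by YY1. These factors are textbook regulators of nuclear genes for respiration.

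Atp5po, chr11:44657484-44657603 (- strand): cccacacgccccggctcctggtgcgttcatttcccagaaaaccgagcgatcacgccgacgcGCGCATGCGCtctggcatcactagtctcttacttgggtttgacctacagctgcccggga
Uqcrfs1, chr17:34186482-34186601 (+ strand): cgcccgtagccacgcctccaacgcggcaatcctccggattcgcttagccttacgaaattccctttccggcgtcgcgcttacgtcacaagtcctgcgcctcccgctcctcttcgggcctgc
Sdhd, chr8:59850642-59850761 (- strand): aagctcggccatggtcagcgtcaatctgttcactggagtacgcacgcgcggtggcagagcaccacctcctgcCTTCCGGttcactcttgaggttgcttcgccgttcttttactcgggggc
Uqcrc2, chr1:184599120-184599239 (+ strand): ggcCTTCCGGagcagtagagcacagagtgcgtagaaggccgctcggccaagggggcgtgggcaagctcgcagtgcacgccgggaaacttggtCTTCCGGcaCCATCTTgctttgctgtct
Sdha, chr1:30764433-30764552 (+ strand): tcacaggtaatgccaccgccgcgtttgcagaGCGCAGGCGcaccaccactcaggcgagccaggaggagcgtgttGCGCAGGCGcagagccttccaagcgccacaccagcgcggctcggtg

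Of the 45 members, 40 had an entry in the promoter table, which holds 250 bases before and 50 bases after each start. The NRF-1 type motif was found in 7 of the 40 (17.5%), against 6.26% of all 27457 promoters of that length. The ETS type was found in 13 (32.5%, against 9.22%) and the YY1 type in 11 (27.5%, against 7.3%). Among the genes shown, Atp5po holds an NRF-1 type match 59 bases before the start that reads on both strands and overlaps itself, Sdhd an ETS type match 48 bases before it, and Uqcrc2 ETS type matches 117 and 28 bases before it and a YY1 type match 19 bases before it. Sdha has NRF-1 type matches 89, 46 and 1 base before its start, the last of which runs past the sequence shown, and Uqcrfs1 has no match to the 3 motifs in its window. Past the start, and so not in the sequences shown, Atp5po also has a YY1 type match at base 2 and Sdhd another ETS type match at base 20. These matches are counts of letters, and binding was not measured.

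Subunit genes were variable more often than the array as a whole. Of the 44 member probe sets 21 were flat (47.7%, against 91.6% of all probe sets), and among probe sets with a mean above 9 the share was 38.9% of 36 members against 58.5% of 1665. The 23 variable probe sets belong to 22 genes, 6 of complex I, 3 of complex II, 4 of complex III, 4 of complex IV and 5 of complex V. Near the limit, Ndufs8 and Cox8a had SDs of 0.0125 and 0.0132 and count as variable, and a probe set of Ndufa9, at 0.0030, came nearest to the limit among the flat ones. The other variable probe sets had SDs from 0.0494 for Atp5f1b to 0.22 for Uqcrfs1.

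No subunit gene passed the threshold between the diets. With limma over all 31042 probe sets, 0 of the 44 member probe sets had a Benjamini-Hochberg adjusted p under 0.05, against 0% of all probe sets, and the lowest adjusted p was 0.993 for a member and 0.409 for any probe set. At an unadjusted p under 0.05 there was 1 member, Cox6c, among the 23 variable ones, where all variable probe sets gave 8.13% and all probe sets 4.77% (1481). The groups overlapped in all 23 variable member probe sets (0.959% of all variable probe sets had groups that did not overlap). The differences, noodle minus control, were above 0 in 19 of the 23 (82.6%), against 44.6% of all variable probe sets, and the members move together across animals, so these 19 are not 19 separate observations. The median difference over the 23 was 0.06 log2 units, against -0.01 over all variable probe sets. The count moved with single animals: leaving out noodle animal 13 gave 14 of 23, control animal 14 gave 18 and noodle animal 4 gave 23.

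**Figure D1:**
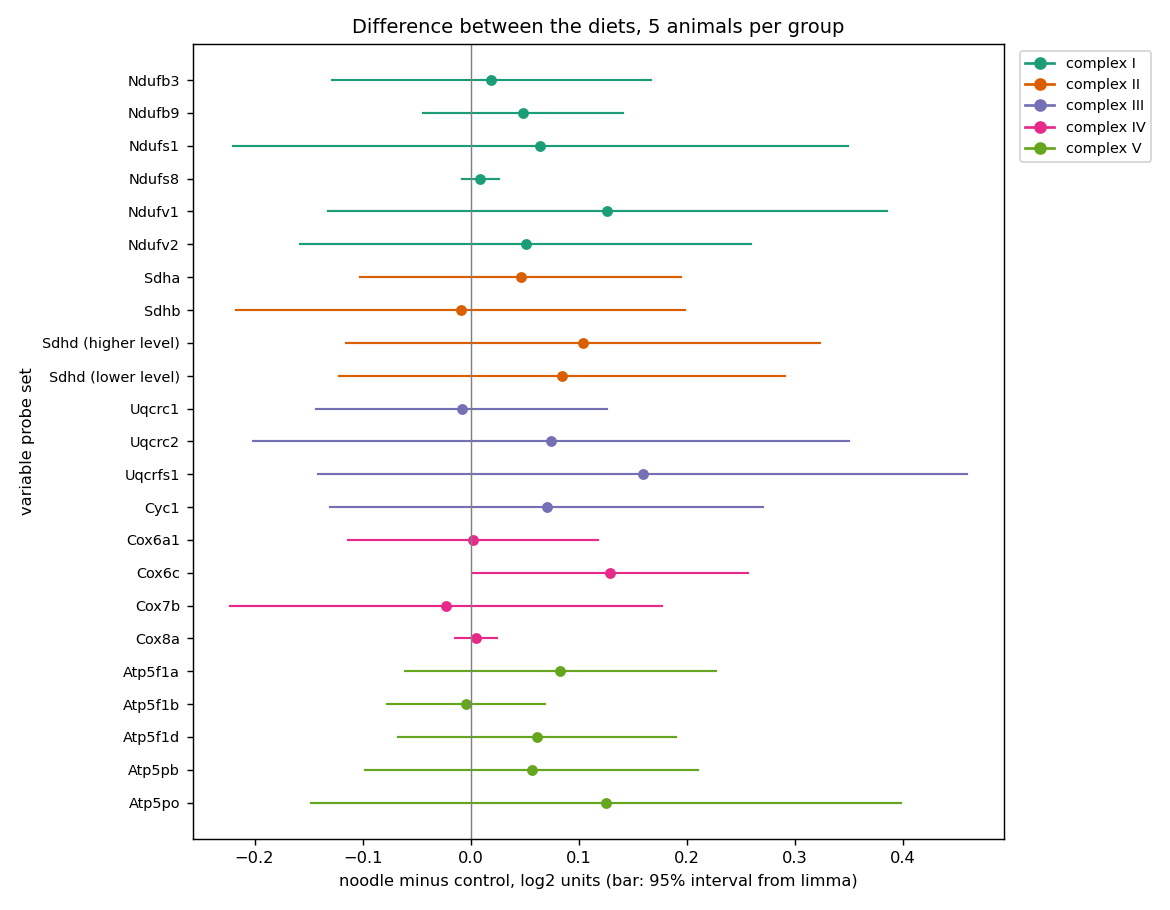
Difference noodle minus control (log2 units, horizontal axis) of the 23 variable probe sets, in the order complex I to V, with 95% intervals from limma (5 animals per group). Points lie between -0.02 for Cox7b and 0.16 for Uqcrfs1, and Cox6c is the one probe set whose interval, 0.001 to 0.26, does not reach 0.

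Complex I, the NADH dehydrogenase, was measured by 16 probe sets for 15 genes, with levels between 7.64 and 11.3 for the highest probe set of each gene. Its 6 variable genes were all above 0 in difference, between 0.0092 and 0.13, with a median of 0.05. Ndufs1, which carries iron-sulphur clusters of the NADH-oxidising arm, varied the most within groups. Ndufs1 stood at 9.60, 9.15, 9.57, 9.44 and 9.77 in noodle animals 1, 4, 7, 10 and 13, in that order, and at 9.23, 9.64, 9.38, 9.36 and 9.60 in control animals 2, 5, 8, 11 and 14, the order used for each gene that follows. Noodle animal 4 was the lowest and noodle animal 13 the highest, the groups overlapped, and the difference was 0.06 ± 0.12 log2 units (SE, n = 5 per group). Ndufs8, another iron-sulphur subunit and the variable complex I gene with the smallest p, stood at 8.822, 8.810, 8.820, 8.819 and 8.840 in the noodle group and at 8.804, 8.829, 8.813, 8.796 and 8.823 in the control group. Its whole range over 10 animals was 0.0439 log2 units and its difference was 0.0092 ± 0.0075. Ndufb3, an accessory subunit of the membrane arm, stood at 11.08, 10.86, 10.97, 11.07 and 11.09 in the noodle group and at 10.93, 11.15, 11.05, 10.97 and 10.86 in the control group. The groups overlapped here too, with a difference of 0.019 ± 0.06.

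The flavoprotein subunit genes were both lowest among noodle rats in noodle animal 4, and differed in control animal 14. Ndufv1, which binds NADH, was at 9.58 in noodle animal 4 and at 9.43 in control animal 14, the lowest of all, against a highest value of 10.02 in control animal 5, and its difference was 0.13 ± 0.11. Ndufv2, its partner in the NADH-binding module, was at 9.30 in noodle animal 4, the lowest of all, and at 9.64 in control animal 14, above the other 4 controls, with a difference of 0.05 ± 0.09. Ndufb9 differed by 0.05 ± 0.04. The 9 genes with flat probe sets were Ndufa1, Ndufa2, Ndufa4, Ndufa5, Ndufa9, Ndufb5, Ndufb8, Ndufs3 and Ndufs4, at levels from 7.64 to 11.3, and another Ndufa9 probe set stood at 5.49. Ndufa4 is listed here with complex I, where it was first placed, and is now usually counted as a subunit of complex IV.

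Complex II, the succinate dehydrogenase shared with the citric acid cycle, has 4 subunits, and all were measured. Sdhc, 1 of the membrane anchors, was flat at 10.6, and the other 3 genes were variable. Sdhd, the other membrane anchor, stood at 10.71, 10.48, 10.62, 10.67 and 10.80 in the noodle group and at 10.61, 10.74, 10.65, 10.53 and 10.24 in the control group. Control animal 14 lay lowest and noodle animal 13 highest, and the difference was 0.10 ± 0.10 (95% interval -0.12 to 0.32). The other Sdhd probe set differed by 0.08 ± 0.09, and over the 10 animals the pair correlated at r = 0.875 (rho = 0.964), with noodle animal 4 the lowest and control animal 14 the next in the other probe set. Sdha, the catalytic flavoprotein, differed by 0.05 ± 0.07, and Sdhb, the iron-sulphur subunit, by -0.0092 ± 0.09, and in neither did control animal 14 lie outside the other controls.

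Complex III, the cytochrome bc1 complex, was measured by 6 probe sets for 5 genes. Uqcrh was flat at 10.3, as was another Uqcrc2 probe set at 7.92, and the 4 variable genes had a median difference of 0.07. Uqcrfs1, the Rieske iron-sulphur protein, stood at 10.30, 9.97, 10.28, 10.20 and 10.42 in the noodle group and at 10.13, 10.36, 10.18, 10.04 and 9.67 in the control group. It had the widest spread of all members, 0.751 log2 units from control animal 14 to noodle animal 13, and the highest difference, 0.16 ± 0.13 or 1.12-fold (95% interval -0.14 to 0.46). Without control animal 14 that difference was 0.06, and with the 3-prime to 5-prime difference as a covariate it was 0.27. Uqcrc2, a core subunit, stood at 10.50, 10.09, 10.39, 10.32 and 10.58 in the noodle group and at 10.17, 10.50, 10.17, 10.11 and 10.55 in the control group. Here control animal 14 was the highest control and lay just under noodle animal 13, the highest of all, and the difference was 0.07 ± 0.12. Cyc1, the cytochrome c1 subunit that reduces cytochrome c, differed by 0.07 ± 0.09, and Uqcrc1, the other core subunit, by -0.0083 ± 0.06.

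Complex IV, the cytochrome c oxidase, was measured by 9 probe sets for 9 genes, of which Cox4i1, Cox5a, Cox5b, Cox6b1 and Cox7c were flat at levels from 7.29 to 11.9. The median difference of its 4 variable genes was 0.0036. Cox6c, a small membrane subunit, stood at 11.53, 11.38, 11.49, 11.48 and 11.61 in the noodle group and at 11.35, 11.43, 11.47, 11.38 and 11.21 in the control group. In the noodle group 4 of 5 animals lay above every control, noodle animal 4 lay within the controls, and the difference was 0.13 ± 0.06 or 1.09-fold (limma, adjusted p = 0.993 over all probe sets, unadjusted 0.0486). Without control animal 14, the lowest value, it was 0.09, and over all single animals left out it lay between 0.09 and 0.16. Cox7b, another small subunit, stood at 10.83, 10.62, 10.90, 10.87 and 10.90 in the noodle group and at 10.60, 10.99, 10.99, 10.76 and 10.90 in the control group. Control animal 2 and noodle animal 4 were low, the other 8 animals lay at 10.76 or above, and the difference was -0.02 ± 0.09. Cox8a, the ubiquitous form of subunit VIII, stood at 11.88, 11.84, 11.86, 11.87 and 11.89 in the noodle group and at 11.86, 11.87, 11.86, 11.86 and 11.87 in the control group. Its values spanned 0.0483 log2 units, and its difference was 0.0049 ± 0.0084, while Cox6a1 differed by 0.0023 ± 0.05.

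Complex V, the ATP synthase, was measured by 8 probe sets for 7 genes. Atp5f1c, of the central stalk, and Atp5mc3, of the membrane ring, were flat at 10.8 and 11.7, as was another Atp5po probe set at 5.94. Atp5f1a, the alpha subunit, stood at 11.06, 10.81, 11.02, 11 and 11.18 in the noodle group and at 10.91, 11.01, 10.97, 10.88 and 10.89 in the control group. Noodle animal 4 was lowest, 3 of 5 noodle rats lay above every control, and the difference was 0.08 ± 0.06. Atp5po, of the peripheral stalk, stood at 10.45, 10.24, 10.42, 10.43 and 10.54 in the noodle group and at 10.40, 10.50, 10.39, 10.30 and 9.85 in the control group. Control animal 14 lay far under the other 9, and the difference of 0.13 ± 0.12 was 0.017 without it and 0.27 with the 3-prime to 5-prime covariate. Atp5f1b, the catalytic beta subunit, stood at 12.09, 11.98, 12.07, 12.11 and 12.11 in the noodle group and at 12.05, 12.16, 12.05, 12.05 and 12.07 in the control group. Control animal 5 was the highest and noodle animal 4 the lowest, and the difference was -0.0045 ± 0.03 (95% interval -0.08 to 0.07). Atp5f1d, of the central stalk, differed by 0.06 ± 0.06 and Atp5pb, of the peripheral stalk, by 0.06 ± 0.07.

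**Figure D2:**
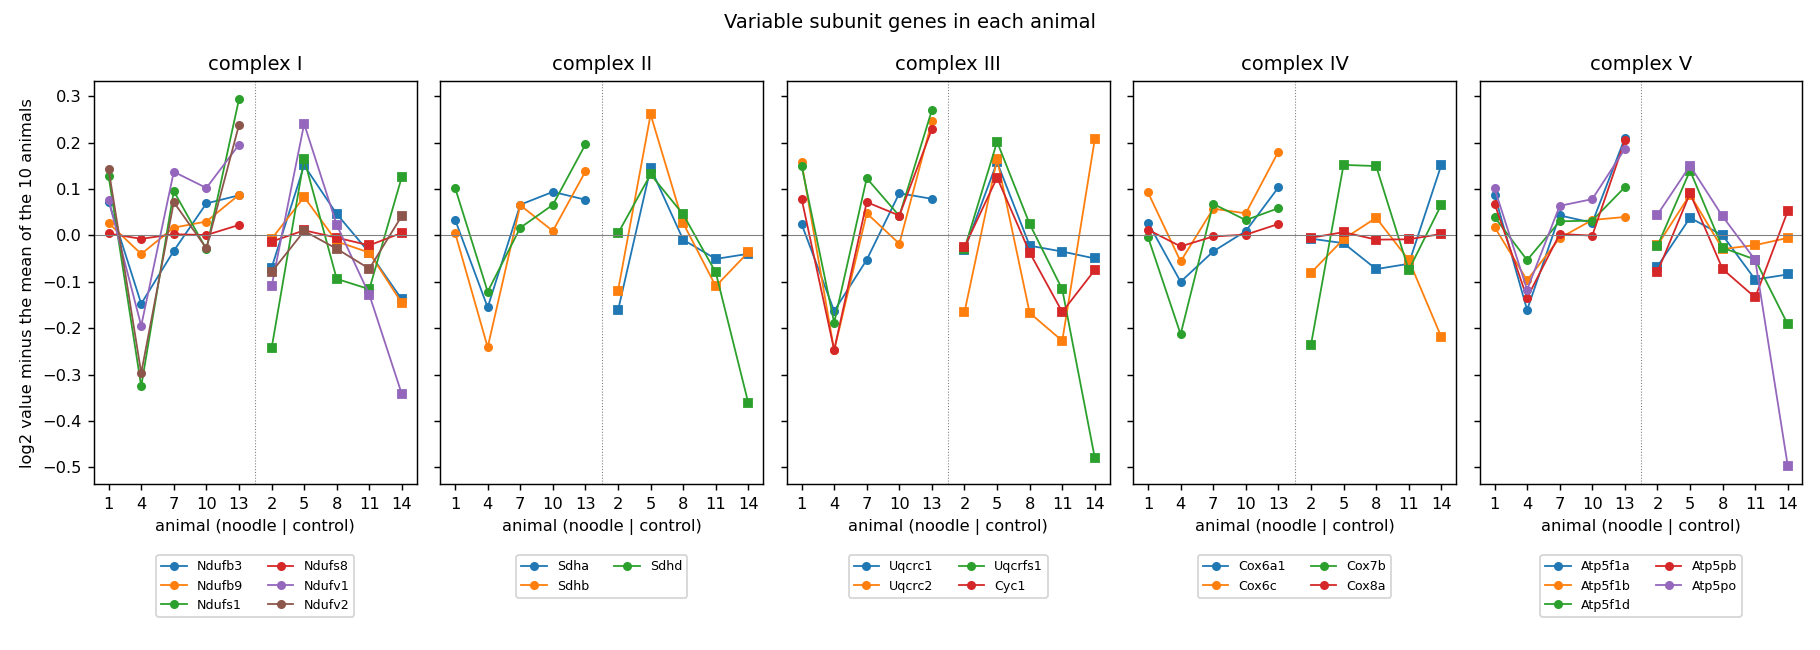
Log2 value minus the mean of the 10 animals (vertical axis) of the 22 variable genes, 1 probe set per gene, in each animal (horizontal axis; circles noodle, squares control; lines only join points of 1 gene within a group), by complex. Noodle animal 4 lies under 0 in 22 of 22 genes and noodle animal 13 above 0 in 22 of 22, while in control animal 14 the genes spread apart.

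The differences between animals were larger than those between the diets, and in noodle animals 4 and 13 they ran in the same direction through all 5 complexes. Of the 22 variable genes, 22 lay under their own mean in noodle animal 4 and 22 above it in noodle animal 13, animals of the same group. In control animal 5, 20 of 22 lay above their mean, and in control animals 2 and 11, 20 and 22 of 22 lay under it. Averaged over the 22 genes, the deviation was -0.15 log2 units in noodle animal 4 and 0.15 in noodle animal 13, and 0.07, 0.04 and 0.03 in noodle animals 1, 7 and 10. In control animals 2, 5, 8, 11 and 14 it was -0.07, 0.11, -0.0087, -0.08 and -0.09. The group means were 0.03 ± 0.11 for noodle and -0.03 ± 0.08 for control (SD, n = 5 each), so their difference of 0.05 was smaller than the SD within either group.

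By complex, the mean deviation in noodle animal 4 was -0.17 for complex I, -0.17 for complex II, -0.21 for complex III, -0.10 for complex IV and -0.11 for complex V. In noodle animal 13 it was 0.15, 0.14, 0.21, 0.09 and 0.15, in the same order. The 10 pairs of complex means correlated across the 10 animals with r from 0.747 to 0.979 and Spearman's rho from 0.855 to 0.952. The highest r was that of complexes I and III (0.979, rho = 0.952, and 0.955 without noodle animals 4 and 13, the animals farthest from the median), and the lowest was that of complexes IV and V (0.747, rho = 0.879, and 0.786 without noodle animal 4 and control animal 2). Without the 2 farthest animals the lowest r of the 10 pairs was 0.674, for complexes III and IV, and with the group means taken off r lay between 0.727 and 0.977. These correlations are descriptions over 10 animals whose values share an array, its labelling and its scaling.

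Pairs of subunit genes had a median r of 0.686 over 231 pairs, against 0.0409 over all pairs of variable probe sets. The r was above 0.5 in 170 of the 231 pairs (73.6%), against 13.8% of all pairs, and taking each group's mean off gave a median of 0.701. Pairs within 1 complex and pairs across complexes had medians of 0.583 over 40 pairs and 0.691 over 191 pairs. Within complexes the median was 0.562 for I, 0.577 for II, 0.695 for III, 0.403 for IV and 0.675 for V. The closest pair was Ndufb9 of complex I and Atp5f1d of complex V (r = 0.991, rho = 0.976, and 0.989 without the 2 animals farthest from the median of Ndufb9), and next came Sdhd with Uqcrfs1 and with Atp5po, at r = 0.981 each.

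Control animal 14 divided the subunit genes. In that animal 7 of the 22 variable genes had the lowest value of all 10 animals: Ndufb9, Ndufv1, Sdhd, Uqcrfs1, Cox6c, Atp5f1d and Atp5po, which come from all 5 complexes. Over all 2607 variable probe sets, control animal 14 was lowest in 281 (10.8%). Cox6a1 had its highest value of all there (11.1), and Uqcrc2 and Ndufv2 lay above the other 4 controls. Without control animal 14 the difference between the diets went from 0.05 to 0.018 for Ndufb9 and from 0.13 to 0.057 for Ndufv1. For Sdhd it went from 0.10 to 0.027 and for Atp5f1d from 0.06 to 0.021. Atp5po and Uqcrfs1, low together in that animal, correlated at r = 0.965 over 10 animals and 0.968 without it. Atp5po and Uqcrc2 correlated at r = 0.0343 (rho = 0.552) over 10 animals, at -0.161 without the 2 animals farthest from the median of Uqcrc2, and at 0.902 without control animal 14. Uqcrc2 and Uqcrfs1, of the same complex, correlated at 0.272 (rho = 0.552) over 10 animals and at 0.958 without it. Over all 231 pairs the median r was 0.686 with and 0.851 without control animal 14, and the number of pairs with r under 0 went from 7 to 0. Between the 7 genes and the other 15 the median r was 0.503 over 10 animals and 0.855 over 9. The 7 genes were picked for their position in this animal, so these values are a description. Of the 12 variable genes among the other subunits, Atp5mk, Atp5mg and Ndufb7 were also lowest in that animal and Atp5if1 and Cox6b2 highest. Its 3-prime to 5-prime difference was 0.82, the lowest of the controls, where the other 4 lay between 0.95 and 1.06, and 7 mesothelial markers averaged 7.57 there, the highest of the 10 animals; the part of either in the result was not tested.

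**Figure D3:**
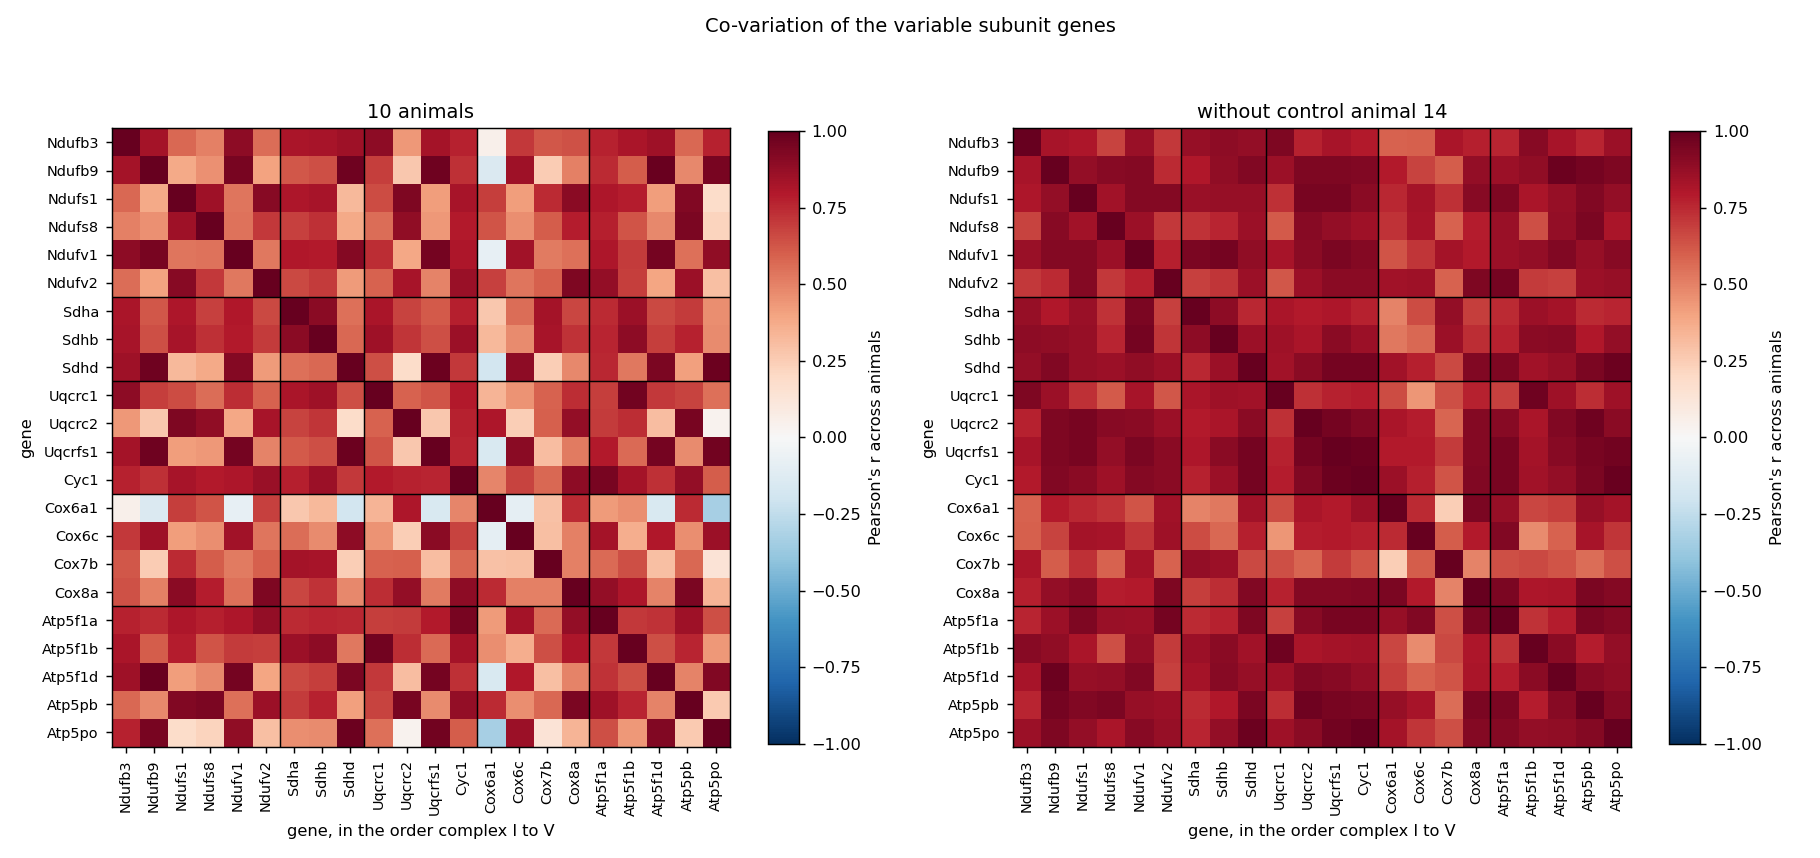
Pearson's r across animals (colour, -1 to 1) for each pair of the 22 variable genes, ordered by complex with black lines between complexes, over 10 animals (left) and over the 9 animals without control animal 14 (right). The median r is 0.686 on the left, where 7 pairs lie under 0, and 0.851 on the right, where 0 pairs do.

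**Figure D4:**
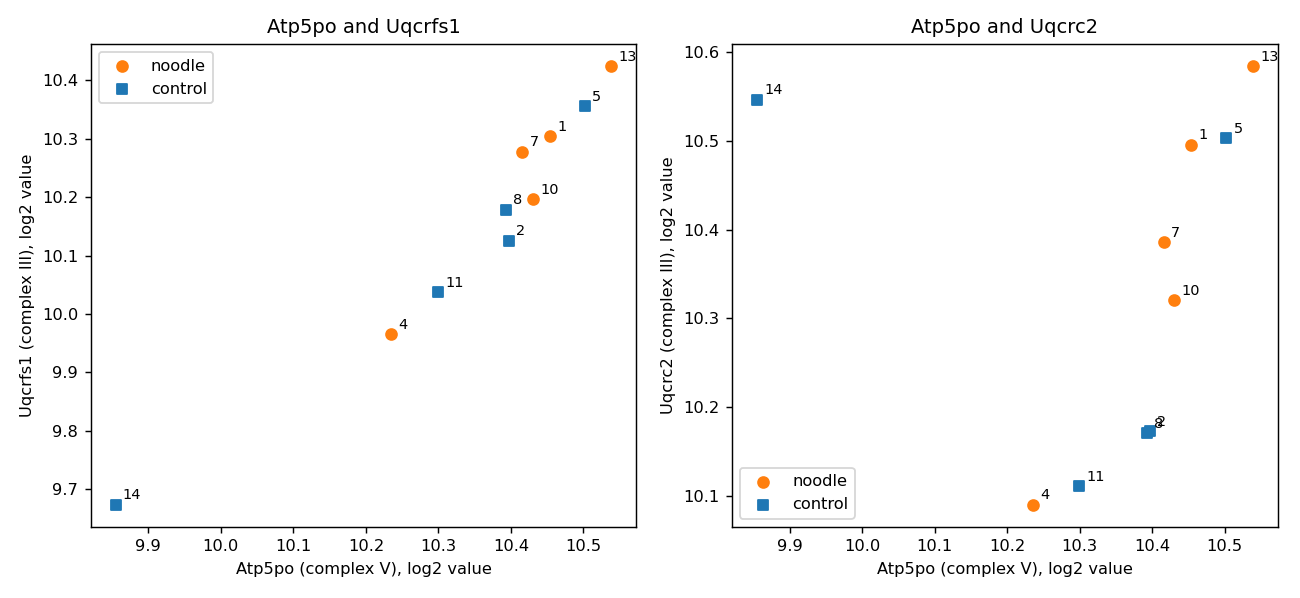
Log2 values of Uqcrfs1 (left) and Uqcrc2 (right) on the vertical axes against Atp5po on the horizontal axes, 1 point per animal with its number (circles noodle, squares control). Control animal 14 lies at the low end of the trend with Uqcrfs1 and away from the other 9 animals with Uqcrc2.

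The other genes of the pathway, taken from lists of further subunits, assembly factors, regulators and mitochondrially encoded genes, did not pass the threshold in either direction. Of 42 further subunits 38 were measured, 12 with a variable probe set. Of these 9 were above 0 in difference and 3 below, where 44.6% of all variable probe sets were above 0. Atp5mg, a membrane subunit of the ATP synthase, differed by 0.16 ± 0.06 (SE, n = 5 per group), Ndufb10 of complex I by 0.09 ± 0.04 and Atp5pd of the peripheral stalk by 0.04 ± 0.03. In limma the unadjusted p was 0.0251 for Atp5mg and 0.0477 for Ndufb10, with an adjusted p of 0.993 for each. Among all variable probe sets, 8.13% had an unadjusted p under 0.05. Cox8b, the form of subunit VIII found in muscle and brown fat, had the largest SD of these (0.605), and stood at 5.78, 5.40, 5.55, 6.98 and 6.72 in the noodle group and at 6.08, 6.72, 5.68, 5.45 and 5.47 in the control group. It was high in noodle animals 10 and 13 and control animal 5, the same 3 animals in which Ucp1, the uncoupling protein of brown and beige fat, was highest (6.73, 6.43 and 6.40, against 5.45 to 5.95 in the other 7). Averaged over the 10 animals, Cox8b at 5.98 and Ucp1 at 5.91 lay under the array medians. Cidea, another marker of brown fat, was also highest in noodle animals 10 and 13 (10.30 and 10.22). In Cidea, control animal 5 (10.07) lay under control animals 2 and 8 (10.14 and 10.18). The further markers Cox7a1, Dio2, Elovl3 and Ppargc1a were flat, at 5.29 to 5.93. Of 46 assembly factors 41 were measured and 5 had a variable probe set, among them Sdhaf2, which helps attach flavin to Sdha, with differences of -0.26 ± 0.10 and -0.08 ± 0.03 in its 2 probe sets, Tmem126b at 0.18 ± 0.10 and Sdhaf1 at 0.09 ± 0.10. Both Sdhaf2 probe sets had an adjusted p of 0.993 in limma, with unadjusted p of 0.0378 and 0.0222, in the same order. Of 21 regulators 20 were measured, and Ppargc1a, Nrf1, Gabpa, Tfam and Esrra, the best known among them, were flat, as were all but Yy1 (0.05 ± 0.09) and Esrrg (0.02 ± 0.01). Each of these 2 had 1 variable probe set, and their other probe sets were flat. The highest probe sets of the 5 named flat genes stood between 5.93 for Ppargc1a and 8.04 for Tfam. A flat value does not show that the RNA was stable, since the labels do not say what made values flat. Of the 13 mitochondrially encoded genes 2 were measured, with COX2 flat at 13.5 and COX1 at a difference of 0.05 ± 0.04.

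Other genes were compared with the mean of the subunit genes across animals. Among 2057 variable single-gene probe sets of non-members, r with the mean deviation of the 22 genes was above 0.8 in 92 and below -0.8 in 42. The measure was the Pearson correlation over 10 animals, and the genes named here were chosen after their values were seen. The closest was Cs, the citrate synthase that opens the citric acid cycle, with r = 0.968 (rho = 0.952, and 0.960 without noodle animals 4 and 13), and its other variable probe set had r = 0.902. Cs stood at 9.15, 8.80, 9.05, 9.01 and 9.15 in the noodle group and at 8.93, 9.17, 9.01, 8.92 and 8.91 in the control group, so noodle animal 4 was lowest here as well. In order of r there followed the mitochondrial chaperone Hspa9 at 0.945, the pyruvate dehydrogenase subunit Pdhb at 0.939, the further ATP synthase subunit Atp5pd at 0.930, the mitochondrial elongation factor Tufm at 0.925 and the chaperone Hspd1 at 0.922. The further complex I genes Ndufab1 and Ndufb7 were at 0.915 and 0.912, and Slc2a4, the insulin-regulated glucose transporter, came after them at 0.910. COX1, encoded by mitochondrial DNA, had r = -0.146, and Yy1 and Esrrg had 0.0402 and 0.310. COX1 stood at 13.6 and was the 1 variable gene of the 2 measured among the 13 mitochondrially encoded genes, so its r does not describe the others. Cpt1a, which admits long-chain fatty acids to mitochondria, ran the other way at r = -0.942. For lists of cell type markers, r was taken between the subunit genes and the mean deviation of the variable genes of the list, and levels are means over all its measured genes. It was 0.656 for brown or thermogenic adipocyte markers, with 3 variable genes among 7 measured, of which Cox8b is also a further subunit. Their mean level was 6.20 to 6.64 in the noodle group and 6.17 to 6.52 in the control group, highest in noodle animals 10 and 13 and control animal 5. For skeletal muscle markers it was 0.519, which rests on Myh1, the 1 variable gene of 9. Myh1 was the highest of them at 10.3, while the median level of the 9 was 5.77. Acta1 and Ckm were flat at 5.37 and 5.78, under the array medians. Endothelial markers had r = -0.646, with a mean level of 8.58 in noodle animal 4 and 8.56 in control animal 2, against 8.27 to 8.47 in the other 8. Their variable genes differed, with r of -0.751 for Pecam1, -0.698 for Vwf and -0.677 for Emcn, but 0.0885 for Kdr. Mesothelial markers had r = -0.290 and macrophage markers r = -0.167. All 10 macrophage genes were above 0 in difference, against 44.6% of all variable probe sets. All 9 variable mesothelial probe sets, of 7 genes, and all 4 variable red blood cell probe sets were below 0. The genes of a list share the same 10 animals, so they are not separate observations. Mean levels of the macrophage genes were 8.49 to 9.02 in the noodle group and 8.33 to 8.92 in the control group. The 4 red blood cell genes measured had means of 8.62 in the noodle group and 8.85 in the control group, with r = 0.256. For these means the exact two-sided permutation test over 252 assignments (n = 5 each) gave p = 0.0635. The same exact two-sided permutation test (n = 5 each) gave p = 0.175 for the macrophage list and p = 0.349 for the mesothelial list. In the exact two-sided permutation test (n = 5 each) the brown or thermogenic list had p = 0.540 and the endothelial list p = 0.857. The red blood cell list had the smallest p of all lists tested, and none was adjusted for the number of lists. White adipocyte markers had r = 0.0996 over 3 variable genes. The other 9 of their 12 probe sets were flat, so this r describes the 3 variable genes and not the rest of the list. The part of other cell types in the spread of the subunit genes was not tested.

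**Figure D5:**
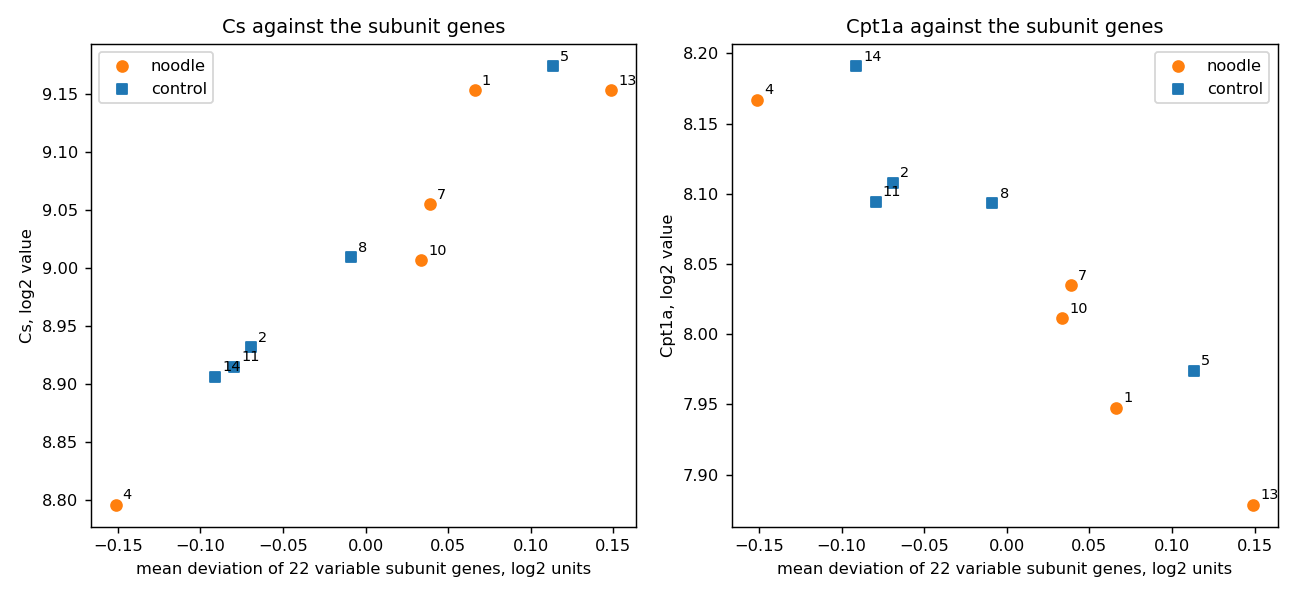
Log2 value of Cs (left) and Cpt1a (right) on the vertical axes against the mean deviation of the 22 variable subunit genes (horizontal axis, log2 units), 1 point per animal with its number (circles noodle, squares control). Cs is high where the subunit genes are high (r = 0.968) and Cpt1a is low there (r = -0.942), with animals of both groups along each trend.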

How the data were processed

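White adipose tissue of 10 rats was profiled on 1 expression array each, from 100 ng of biotin-labelled RNA per the labels' protocols. The deposited table gives 1 log2 value per probe set and array. The log base was taken from the range of the values, and the authors' background correction, summarisation and normalization are not named by the labels or the table. Of 31099 probe sets, 57 control probe sets were left out, and 20826 of the rest have 1 gene symbol in the platform annotation, 436 several and 9780 none. The highest probe set by mean stood for a gene. Groups follow the sample titles, and the feeding pairs are not named. Noodle minus control was fitted with limma 3.58.1 in R 4.3.3 (lmFit, eBayes, two-sided) over all 31042 probe sets with Benjamini-Hochberg adjustment at 0.05. The fit was tested on simulated data with known changes in variable probe sets, 50 of each size. It called 48% of changes of 0.5 log2 units, 78% of those of 1 and 100% of those of 2 and of 4. The largest difference of a member, 0.16, is under the smallest change simulated, so the recovery of changes of that size was not tested. Alternatives were other scalings, filters, covariates, array weights and leaving out each animal. Correlations are Pearson's and Spearman's over animals, as descriptions. The precision is limited by 5 arrays per group. The members and lists were chosen with earlier results of these data known. Named genes were all members with a variable probe set, with values of every animal for those with the smallest p, largest SD within groups and highest mean per complex, and up to 3 genes of smallest p per further list. Cox8b, Ucp1, Cidea, the genes most like the members and the control animal 14 set were named after their values were seen. The lists of mitochondrially encoded genes use the names COX1 and COX2 of the annotation. Promoters are from RefSeq, build GRCr8.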

Additional observations from a re-analysis of the deposited data

Results flagged for a closer look

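In 6 of 60 sets of 5 animals (22 genes, 5 complex means and 3 array measures in each diet group) a single animal lay apart from its group. About 3 such cases, 1 in 20, would come by chance. The 60 sets are not separate, because the genes move together and the complex means are made from them. All 6 cases lay in noodle animal 4 or control animal 5, so the 6 cannot be weighed against the 3. In noodle animal 4, Sdha was at 10.04 while its group otherwise spanned 10.23 to 10.29, and Cox7b was at 10.62 while the others spanned 10.83 to 10.90. The mean deviation of complex II in that animal was -0.17, with the rest of its group at 0.05 to 0.14. In control animal 5, Uqcrc1 was at 10.45 while the rest of its group spanned 10.24 to 10.27, and Atp5f1b was at 12.16 while they spanned 12.05 to 12.07. The mean deviation of complex III there was 0.16, with the rest between -0.14 and -0.05.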

How the results depend on the processing

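No member passed the threshold under any alternative run, and no paired analysis was possible because the labels do not name the feeding pairs and the groups share no animal numbers. Over all probe sets 0 passed, or 0 to 1 when 1 animal was left out, the 1 coming without control animal 14, and 1 with both noodle animal 4 and control animal 14 left out, an alternative added after the data were examined. Of 443 gene and setting pairs, 404 kept the direction of the difference and 39 turned, in 10 of 22 genes, 20 of them with 1 animal left out. Those that turned with the 3-prime to 5-prime covariate were Ndufs1 at -0.0521, Ndufv2 at -0.0606, Sdhb at 0.0062, Uqcrc1 at 0.0360, Uqcrc2 at -0.0420, Cox6a1 at -0.0760, Cox8a at -0.0018 and Atp5f1b at 0.0076. With array weights they were Sdhb at 0.0340, Uqcrc1 at 0.0167, Cox7b at 0.0388 and Atp5f1b at 0.0083, with the hybridization covariate Sdhb at 0.0170, Cox6a1 at -0.0081 and Cox7b at 0.0755, and without noodle animal 4 and control animal 14 Sdhb at 0.0398, Uqcrc1 at 0.0179, Cox7b at 0.0412 and Atp5f1b at 0.0172. The cause was not tested. With 1 animal left out, the differences that turned lay in these ranges: Ndufb3 -0.0129 to 0.0594, Ndufs1 -0.000679 to 0.154, Ndufv2 -0.0021 to 0.132, Sdhb -0.0448 to 0.0549, Uqcrc1 -0.0321 to 0.0314, Cox6a1 -0.0233 to 0.0405, Cox7b -0.0847 to 0.0275, Cox8a -0.000596 to 0.0115 and Atp5f1b -0.0150 to 0.0191. The count of differences above 0 among variable members was 17 of 23 with that 3-prime to 5-prime covariate, 23 with array weights and 14 to 23 with 1 animal left out. The median difference, with 1 animal left out, lay from 0.0023 to 0.10 for complex I, 0.03 to 0.12 for II, 0.02 to 0.14 for III, -0.01 to 0.03 for IV and 0.02 to 0.10 for V, the lowest of I, III and IV coming from leaving out noodle animal 13 and the lowest of II and V from leaving out control animal 14. With the 3-prime to 5-prime covariate the median of complex IV was -0.0237, with the hybridization covariate 0.0403 and with array weights 0.0307. The median r of the members was 0.618 with noodle animal 4 left out and 0.851 with control animal 14 left out, and 0.652 and 0.690 under quantile normalization and centring. Flat probe sets and 5 animals per group limit what can be seen.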

Other observations

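The variable genes that ran most against the subunit genes over the 10 animals were led by Ccn1, a secreted matrix-associated protein, at r = -0.964, the sulfotransferase Sult1d1 at -0.946 and Cpt1a, which admits long-chain fatty acids to mitochondria, at -0.942. Cpt1a stood at 7.95, 8.17, 8.04, 8.01 and 7.88 in noodle animals 1, 4, 7, 10 and 13 and at 8.11, 7.97, 8.09, 8.09 and 8.19 in control animals 2, 5, 8, 11 and 14. It was highest in noodle animal 4 and control animal 14 and lowest in noodle animal 13, while the diets differed by -0.08 ± 0.06 (SE, n = 5 per group). Ccn1 differed by -0.28 ± 0.18 and was lowest in noodle animal 13, at 6.50, and near its top in noodle animal 4, at 7.26, and in control animals 2, 11 and 14, at 7.18 to 7.29. After these came the chemokine receptor Ackr3 at r = -0.897, the prostaglandin-degrading enzyme Hpgd at -0.890, and Rab7b, Fam124a, Glis2 and Zbtb20 at -0.882 to -0.873. Farther down stood the mast cell tryptase Tpsab1 at -0.870, the collagen gene Col6a1 at -0.862, the basement membrane gene Nid1 at -0.855 and the matrix protease Mmp2 at -0.846, among others. With the group means taken off, r was -0.981 for Ccn1 and -0.948 for Cpt1a. These genes were chosen after their values were seen, and r is a description over 10 animals.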
